A study of Mus musculus with 8 samples.

Results

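Fatty acid oxidation and ketone body formation were described here through 38 genes, given as a list of names and found on the arrays by the accession of each probe. Of these, 37 were matched to a probe and tested among 42965 features (23889 of them genes with a symbol), and Acot2 was not analysed here. The samples were livers of male recombinant congenic mice from crosses of the New Zealand Obese strain (NZO/HiBomDife) with C57BL/6J, and the mice differed in a segment of 5.3 Mbp of chromosome 18. The genotype Ltg/NZO.5.3N/N (NN) had 4 arrays, labelled 1, 4, 6 and 7, and the genotype Ltg/NZO.5.3N/B (NB) had 4 arrays, labelled 2, 3, 5 and 8. Mice of both genotypes ate a high-fat diet with 45% fat and are described as 5 weeks of age. The labels give neither the position of the segment on the chromosome nor what the last letter of each genotype stands for, and they leave unsaid whether the 8 samples came from 8 animals. The p-values therefore measure the spread between these samples, which may be technical.

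A fatty acid enters oxidation when it is activated to its acyl-CoA and carried into the mitochondrion as an acylcarnitine, where repeated rounds of dehydrogenation, hydration, dehydrogenation and thiolysis shorten it to acetyl-CoA. Very long and branched chains are first shortened in peroxisomes by enzymes of their own. In the fasted liver much of the acetyl-CoA is turned into ketone bodies, and the nuclear receptor PPARα, encoded by Ppara, is known for raising the transcription of many of these genes when fatty acids accumulate.

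PPARα binds with its partner RXR to direct repeats of the hexamer AGGTCA with 1 base between the copies, and the promoters of the list were searched for this repeat. RefSeq windows of the GRCm38.p6 assembly, from 250 bases before to 50 bases after a start site, were found for 32 of the 38 genes and searched on both strands. No gene of the list held the repeat without a mismatch, as against 0.0481% of 27025 genes in the table. With at most 1 mismatch 1 of the 32 (3.13%) held it, beside 0.644% of all genes, and with at most 2 mismatches 6 of the 32 (18.8%) did, beside 4.40%. The hexamer alone, which is also part of the repeat, stood in 8 of the 32 windows' genes (25.0%) and in 18.1% of all genes. Each match is a description of letters in the window and not of binding. Fabp1, the cytosolic fatty acid binding protein of the liver, had the closest match, at bases −67 to −55 from the start site and on the opposite strand. The 250 bases before its start site follow, and the capitals mark the match.
Fabp1, chr6:71199629-71199878 (plus strand): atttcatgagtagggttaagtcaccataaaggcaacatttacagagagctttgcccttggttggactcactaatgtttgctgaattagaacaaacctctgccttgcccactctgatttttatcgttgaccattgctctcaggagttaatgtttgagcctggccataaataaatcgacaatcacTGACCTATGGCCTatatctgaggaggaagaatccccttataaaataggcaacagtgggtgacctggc

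The other matches had 2 mismatches. They lay at −13 to −1 in Acot4, −209 to −197 in Creb3l3, −83 to −71 in Echs1, −77 to −65 in Etfa and 6 to 18 after the start site in Slc25a20. The 4 upstream ones are shown with 10 bases on each side, on the strand of the gene, with the match in capitals.
Acot4, chr12:84038356-84038388 (plus strand): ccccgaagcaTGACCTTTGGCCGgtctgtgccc
Creb3l3, chr10:81092778-81092810 (minus strand): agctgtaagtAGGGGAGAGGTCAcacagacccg
Echs1, chr7:140116482-140116514 (minus strand): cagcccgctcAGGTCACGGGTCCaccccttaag
Etfa, chr9:55512298-55512330 (minus strand): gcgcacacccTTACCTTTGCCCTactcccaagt

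The array letters matter for the acyl-CoA thioesterases, a family of similar genes of which 3 were measured, and for Etfb and Hadhb, which, with Acaa1b and Vnn1, were the 4 genes read by more than 1 probe. The probes of Acot1 and Acot3 and the dimmer probes of Etfb and Hadhb had these sequences.
Acot1 probe: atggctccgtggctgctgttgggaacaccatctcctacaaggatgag
Acot3 probe: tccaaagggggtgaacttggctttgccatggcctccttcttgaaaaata
Etfb, dimmer probe: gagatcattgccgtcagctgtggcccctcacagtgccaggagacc
Hadhb, dimmer probe: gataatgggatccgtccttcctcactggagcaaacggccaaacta
Whether a probe of 1 thioesterase also binds the transcripts of another was not tested, and the values of these genes are uncertain in that respect.

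All 8 arrays lay on 1 slide and were scanned on 1 day. The 75th percentile of the signal lay between 445 and 584 intensity units, 75.1% to 80.2% of probes were well above background on an array, and no spot was saturated. All 10 hepatocyte markers were detected on every array, with a summed level relative to the 75th percentile of 1286 to 1449 in NN and 1251 to 1393 in NB. Of 7 Kupffer cell markers 6 had a positive difference (median 0.18 on the log2 scale), as had all 6 monocyte and macrophage markers (median 0.23) and 5 of 6 stellate cell markers (median 0.11, 1 at an unadjusted p under 0.05). Of the 10 hepatocyte markers 7 had a negative difference (median −0.04, 1 at an unadjusted p under 0.05). Positive differences were found for 3 of 5 endothelial, 1 of 4 cholangiocyte, 3 of 7 lymphocyte and 5 of 6 skeletal muscle markers. They were also found for 4 of 6 adipocyte, 2 of 5 pancreas and 1 of 4 kidney markers, with 1 pancreas marker at an unadjusted p under 0.05. Of all features, 54.1% had a negative difference and 1.69% an unadjusted p under 0.05. The limma test called no marker of these lists after adjustment. Their part in the values below was not tested. In whole liver RNA, fewer cells of a type and less RNA per cell cannot be told apart.

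No gene of the list passed the test between the genotypes. The limma test called 0 of the 37 genes at an adjusted p under 0.05, where 3 of all 42965 features were called (0.00698%). At an unadjusted p under 0.05 the count was also 0 of 37, beside 1.69% of all features, and for 0 of 37 did the 4 NB arrays lie wholly apart from the 4 NN arrays, beside 1.16% of all features. The smallest unadjusted p was 0.203 (Vnn1), and every limma adjusted p was 1.00, so the genes below are given with their standard error (SE) and 95% interval only. All values below are log2 signals relative to the array's 75th percentile, so a level can be read against other arrays for the same gene and not against another gene, and differences are NB minus NN. The differences ran from −0.27 (Acaa1b) to 0.23 (Vnn1), with a median of −0.03 over the 37 genes and −0.01 over all features.

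Each interval is for its gene alone, with no allowance for the number of genes. It reflects the spread between these samples under this scaling, and that spread may be technical. For 34 of the 37 genes the 95% interval of the difference lay within a change of 1.5-fold in either direction. The same held for 35343 of all 42965 features. The exceptions were Acaa1b, Acot4 and Vnn1, and the farthest interval limit was 1.73-fold lower in NB, for Acaa1b. For 34 of the 37 the spread between arrays of 1 genotype (pooled SD) was larger than the difference itself. The median SD within genotype was 0.14 over the list and 0.17 over all features, and 24 of the 37 lay under the latter.

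**Figure D1:**
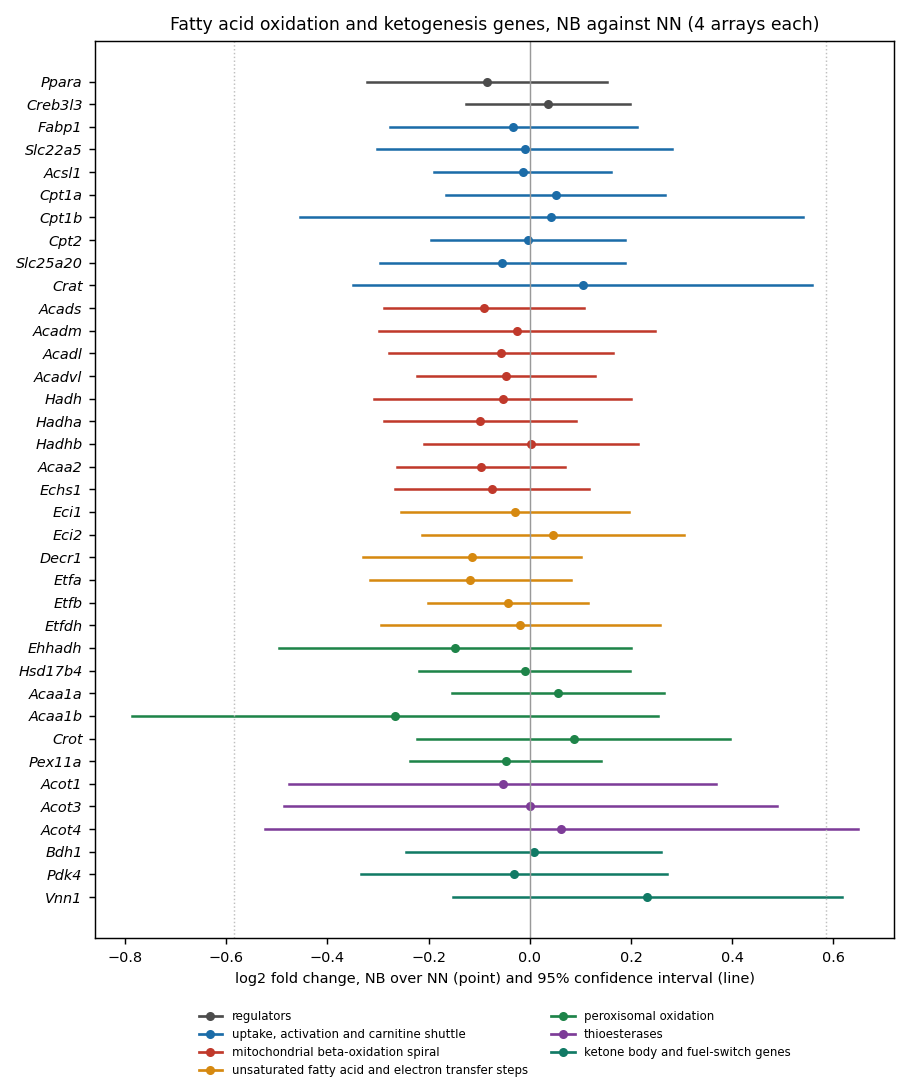
Differences between genotypes for the 37 measured genes, grouped by role. Points are log2 differences (NB minus NN, 4 arrays each), bars are 95% intervals from limma, and dotted lines mark 1.5-fold; every interval crosses 0, and those of Acaa1b, Acot4 and Vnn1 reach past a dotted line.

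Differences of negative sign were more numerous, with 25 negative and 12 positive (67.6% negative, beside 54.1% of all features). This count moved with the scaling and with single arrays. It was 19 of 37 (51.4%) with quantile normalization and 18 of 37 with the authors' value table. Without NN 1 it was 15 of 37, with a median difference of 0.03, and without NB 5 it was 17 of 37, with a median of 0.00417. It went the other way without NB 3 (30 of 37), without NN 4 (28 of 37, median −0.06) and without NN 6 (27 of 37, median −0.06). Without NB 8 it was 27 of 37, without NN 7 it was 26 and without NB 2 it was 23. The negative share of all features lay between 51.3% (without NB 8) and 57.1% (without NB 3). With normexp background correction the count was 27 of 37 (73.0%, beside 64.0% of all features).

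The regulators of the pathway were Ppara and Creb3l3, with 1 negative and 1 positive difference. In each list of values that follows, the order is NN 1, NN 4, NN 6 and NN 7, then NB 2, NB 3, NB 5 and NB 8. Ppara read 4.27, 4.10, 4.09 and 4.18 on the NN arrays and 3.81, 4.24, 4.10 and 4.16 on the NB arrays. Its lowest value was on NB 2 and its highest on NN 1, and the genotypes overlapped. The means were 4.16 ± 0.08 (SD, n = 4) in NN and 4.08 ± 0.18 (SD, n = 4) in NB, a difference of −0.09 (SE 0.10, 95% interval −0.32 to 0.15). Creb3l3, a liver transcription factor of fasting that acts beside PPARα, read 5.79, 5.67, 5.65 and 5.80 on the NN arrays and 5.78, 5.80, 5.75 and 5.72 on the NB arrays. The genotypes overlapped over this narrow range, and the difference was 0.04 (SE 0.07, 95% interval −0.13 to 0.20).

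Uptake, activation and the carnitine shuttle were represented by 8 genes, of which 3 had a positive and 5 a negative difference (median −0.00687). Cpt1a, the rate-limiting carnitine palmitoyltransferase of the outer mitochondrial membrane, read 5.49, 5.25, 5.31 and 5.51 on the NN arrays and 5.35, 5.40, 5.41 and 5.60 on the NB arrays. The highest array was NB 8 and the lowest NN 4, with the rest of both genotypes between them, and the difference was 0.05 (SE 0.09, 95% interval −0.16 to 0.27). Acsl1, the main hepatic enzyme that activates long-chain fatty acids, read 6.22, 6.04, 6.04 and 5.96 on the NN arrays and 6.09, 6.03, 6.03 and 6.06 on the NB arrays. NN 1 was highest, the other 7 arrays lay between 5.96 and 6.09, and the difference was −0.01 (SE 0.08, 95% interval −0.19 to 0.16). Crat, which exchanges acetyl groups between carnitine and CoA, read 2.49, 1.64, 2.17 and 1.94 on the NN arrays and 1.80, 2.47, 2.10 and 2.28 on the NB arrays. It varied more within NN than between the genotypes, with NN 1 and NN 4 at its ends, and the difference was 0.10 (SE 0.20, 95% interval −0.35 to 0.56). The other members were Cpt2, the inner-membrane partner of Cpt1a (−0.0038), Cpt1b, the muscle form (0.04), the carnitine-acylcarnitine carrier Slc25a20 (−0.05), the carnitine transporter Slc22a5 (−0.01) and Fabp1 (−0.03). Skeletal muscle markers summed to a relative level of 16.0 to 19.8 in NN and 16.6 to 19.3 in NB over the 6 of 7 that were measured.

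The mitochondrial spiral had 9 genes, with 8 negative differences and 1 positive one (median −0.06). Every one of their 95% intervals lay within 1.5-fold. Acaa2, the mitochondrial thiolase of the last step, read 6.23, 6.20, 6.22 and 6.25 on the NN arrays and 6.07, 6.18, 6.03 and 6.23 on the NB arrays. NB 5 and NB 2 were its lowest arrays, and NB 8 lay among the NN arrays. The difference was −0.10 (SE 0.07, 95% interval −0.26 to 0.07). Hadha, the α subunit of the trifunctional protein, read 4.85, 4.59, 4.76 and 4.76 on the NN arrays and 4.55, 4.65, 4.62 and 4.74 on the NB arrays. NN 1 was the highest array and NB 2 the lowest, while NN 4 lay below 3 of the 4 NB arrays. The difference was −0.10 (SE 0.08, 95% interval −0.29 to 0.09). Hadhb, the β subunit, had a difference of 0.0024 at its brighter probe and −0.03 at the dimmer one printed above, the only gene of the list whose probes differed in sign. The acyl-CoA dehydrogenases, which open each round for chains of a given length, had differences of −0.09 for Acads (short), −0.03 for Acadm (medium), −0.06 for Acadl (long) and −0.05 for Acadvl (very long). Those of the hydratase Echs1 and the dehydrogenase Hadh were −0.07 and −0.05.

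Enzymes that prepare unsaturated chains and proteins that pass electrons to the respiratory chain made up a further 6 genes, with 5 negative differences and 1 positive one (median −0.04). Etfa, a subunit of the electron transfer flavoprotein, read 5.24, 5.11, 4.90 and 5.05 on the NN arrays and 4.94, 5.02, 4.92 and 4.95 on the NB arrays. NN 1 and NN 4 were its highest arrays, NN 6 was the lowest of all, and the difference was −0.12 (SE 0.09, 95% interval −0.32 to 0.08). Decr1, the mitochondrial dienoyl-CoA reductase, read 5.50, 5.20, 5.32 and 5.38 on the NN arrays and 5.17, 5.16, 5.20 and 5.41 on the NB arrays. NB 8 stood among the NN arrays, the other 3 NB arrays were close to NN 4, and the difference was −0.11 (SE 0.10, 95% interval −0.33 to 0.10). Etfb, the other subunit, had at its brighter probe the narrowest span of the 37 genes, 0.14 log2 units from lowest to highest array. The difference at this probe was −0.04. Its dimmer probe gave a difference of −0.10 and ran from 3.25 (NB 2) to 3.62 (NB 8), so both probes were negative. The isomerases Eci1 and Eci2 gave −0.03 and 0.05, and Etfdh, which hands the electrons to ubiquinone, gave −0.02.

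**Figure D2:**
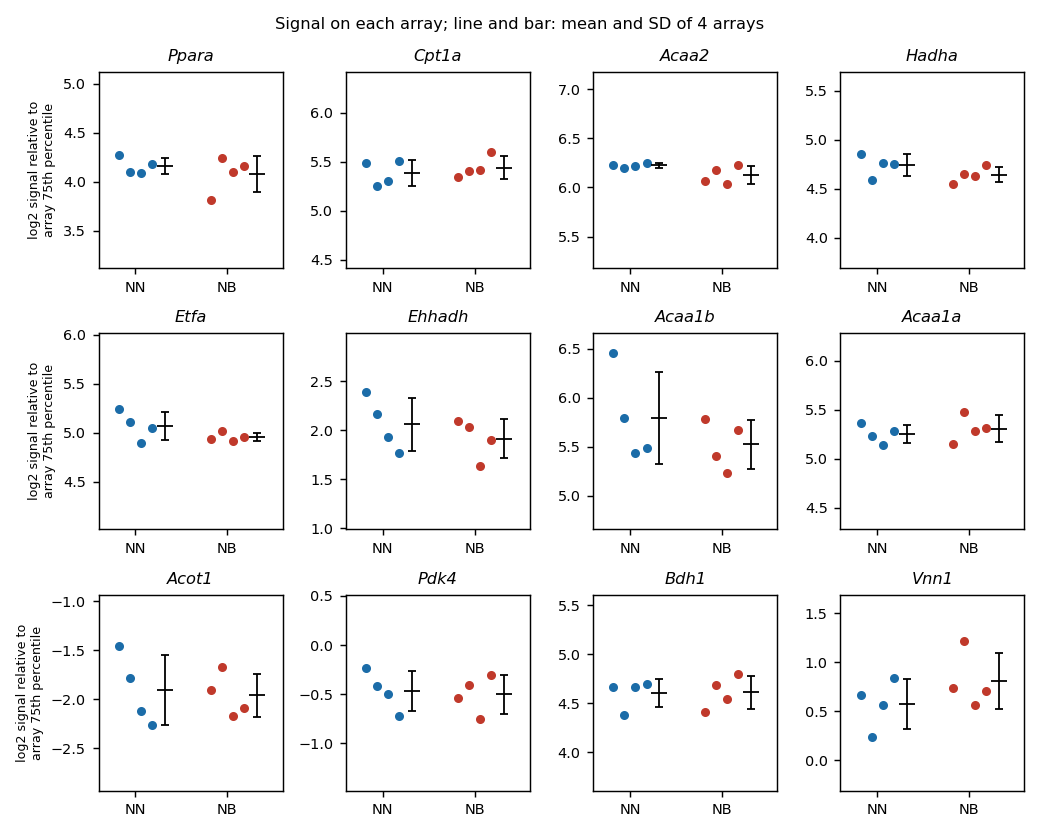
Log2 signal relative to the array's 75th percentile for 12 genes on each of the 8 arrays, by genotype. Points are arrays and bars are the mean ± SD of 4 arrays; each panel spans the same range of log2 units around its own gene, and NN and NB points overlap in every panel.

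Peroxisomal oxidation held the gene with the most negative difference. Acaa1b, a peroxisomal thiolase and a known target of PPARα in rodents, read 6.45, 5.79, 5.43 and 5.49 on the NN arrays and 5.79, 5.41, 5.23 and 5.67 on the NB arrays. NN 1 stood highest, at 6.45, and NB 5 lowest, a span of 2.33-fold, while NN 6 and NN 7 lay inside the NB range and NN 4 at its upper end. The means were 5.79 ± 0.47 (SD, n = 4) in NN and 5.52 ± 0.25 (SD, n = 4) in NB, a difference of −0.27 (SE 0.23, 95% interval −0.79 to 0.25). Without NN 1 it was −0.05, and its dimmer probe gave −0.10. Ehhadh, the bifunctional hydratase and dehydrogenase, read 2.39, 2.16, 1.93 and 1.77 on the NN arrays and 2.09, 2.03, 1.64 and 1.90 on the NB arrays. NN 1 was again the highest array and NB 5 the lowest, and the difference was −0.15 (SE 0.15, 95% interval −0.49 to 0.20). Acaa1a, the closely related thiolase, read 5.36, 5.23, 5.14 and 5.28 on the NN arrays and 5.15, 5.48, 5.28 and 5.32 on the NB arrays. Its highest array was NB 3 and its lowest NN 6, and the difference was 0.05 (SE 0.09, 95% interval −0.15 to 0.26). Shared signal between the probes of the 2 thiolases was not tested. The remaining genes were Hsd17b4, the second bifunctional enzyme (−0.01), Crot, which exports shortened chains as carnitine esters (0.09), and the peroxisome proliferation factor Pex11a (−0.05).

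The thioesterases, which release free fatty acids from acyl-CoA, were the most variable role, with a median SD of 0.35 in the 3 measured genes. Acot1, the cytosolic member, read −1.45, −1.79, −2.11 and −2.26 on the NN arrays and −1.90, −1.67, −2.17 and −2.08 on the NB arrays. NN 1 was highest and NN 7 lowest, so both ends lay in NN, and the difference was −0.05 (SE 0.19, 95% interval −0.48 to 0.37). Acot4, a peroxisomal member, read −0.84, −1.10, 0.01 and −0.96 on the NN arrays and −1.17, −0.56, −0.49 and −0.43 on the NB arrays. NN 6 stood above every other array and NB 2 below, a span of 2.25-fold, and the difference was 0.06 (SE 0.26, 95% interval −0.52 to 0.65). Of the 37 genes, Acot4 and Acaa1b spanned more than 2-fold over the 8 arrays. Acot3 had a difference of 0.00125.

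Ketone body metabolism and fuel choice gave 3 genes. Bdh1, which interconverts acetoacetate and 3-hydroxybutyrate, read 4.67, 4.39, 4.67 and 4.70 on the NN arrays and 4.42, 4.69, 4.55 and 4.80 on the NB arrays. NN 4 and NB 2 were both low, and the difference was 0.01 (SE 0.11, 95% interval −0.24 to 0.26). Pdk4, the kinase that shuts down pyruvate oxidation, read −0.24, −0.42, −0.50 and −0.73 on the NN arrays and −0.54, −0.41, −0.76 and −0.30 on the NB arrays. NN 1 was the highest array, NB 5 and NN 7 were the lowest, and the difference was −0.03 (SE 0.13, 95% interval −0.33 to 0.27). Vnn1, a pantetheinase induced through PPARα in liver, read 0.66, 0.24, 0.56 and 0.83 on the NN arrays and 0.74, 1.22, 0.56 and 0.71 on the NB arrays. NB 3 was highest and NN 4 lowest, and the other 6 arrays lay between 0.56 and 0.83. The means were 0.57 ± 0.25 (SD, n = 4) in NN and 0.81 ± 0.28 (SD, n = 4) in NB, a difference of 0.23 (SE 0.17, 95% interval −0.15 to 0.62), and its second probe gave 0.13.

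Of the genes above, Acaa2 and Hsd17b4 lie on chromosome 18, and their differences of −0.10 and −0.01 were within those of the other genes. Whether either lies within the congenic segment was not analysed here.

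A further 71 genes of the same processes were all measured, and limma called 0 of them (0.00698% of all features), with 0 at an unadjusted p under 0.05 (1.69% of all features). They had 21 positive and 50 negative differences (median −0.04, 70.4% negative, beside 54.1% of all features). NN 1 was the highest array for 26 of them, and how this count moves with scaling or single arrays was not analysed. The arrays of the genotypes did not overlap for 1 of the 71, a share near the 1.16% of all features. This was Pecr, a peroxisomal enoyl-CoA reductase, at 6.11, 5.97, 5.90 and 5.89 on the NN arrays and 5.83, 5.66, 5.80 and 5.85 on the NB arrays. Its difference was −0.18 (SE 0.08, 95% interval −0.37 to 0.01). Abcd3, a peroxisomal fatty acid transporter, gave −0.18 (SE 0.09, 95% interval −0.39 to 0.03). The PPARα targets Fgf21 and Cyp4a14 gave −0.10 and −0.22, the latter with an SD within genotype of 0.77. The coactivator Ppargc1a gave −0.09 (SE 0.28, 95% interval −0.72 to 0.54). Its relative Ppargc1b gave 0.35 (SE 0.20, 95% interval −0.11 to 0.81), and the genotypes overlapped. Ppargc1b also lies on chromosome 18, and whether it lies within the congenic segment was not analysed here.

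The larger pattern in the list ran along single arrays. NN 1 was the highest of the 8 arrays for 23 of the 37 genes (62.2%), as against 17.1% of all features. It was the lowest for 0, as against 8.46% of all features. It lay above the gene's mean over 8 arrays for 33 of 37, beside 56.7% of all features, with a median deviation of 0.18 (0.03 over all features). The count of genes highest on NN 1 was 16 with quantile normalization, 21 with median scaling and 23 with normexp. The shares of all features were then 14.5%, 15.0% and 16.1%. Of the hepatocyte markers, 3 of 10 were above their mean on NN 1, with a median of −0.05. These markers also varied by array, with 0 of 10 above on NB 2 (median −0.11) and 9 of 10 on NN 6 (median 0.09). Their part in the pattern was not tested. NB 5 lay below the mean for 31 of 37 genes and above it for 6, while 46.0% of all features were above theirs. Its median deviation was −0.09 (−0.01 over all features), the lowest median of the 8 arrays under this scaling. Another array was lowest under some other scalings: NN 6 with quantile normalization (−0.06, NB 5 −0.04) and NN 4 with median scaling (−0.08, NB 5 −0.07). With normexp NB 5 stayed lowest (−0.09, NN 6 −0.06). NB 5 was the lowest array for 6 genes, NN 6 for 9 and NB 2 for 8. Of all features, 11.7% were lowest on NB 5, 12.2% on NN 6 and 18.1% on NB 2. Of the 71 other genes, 26 were highest on NN 1. The deviations are given as a description with no test.

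**Figure D3:**
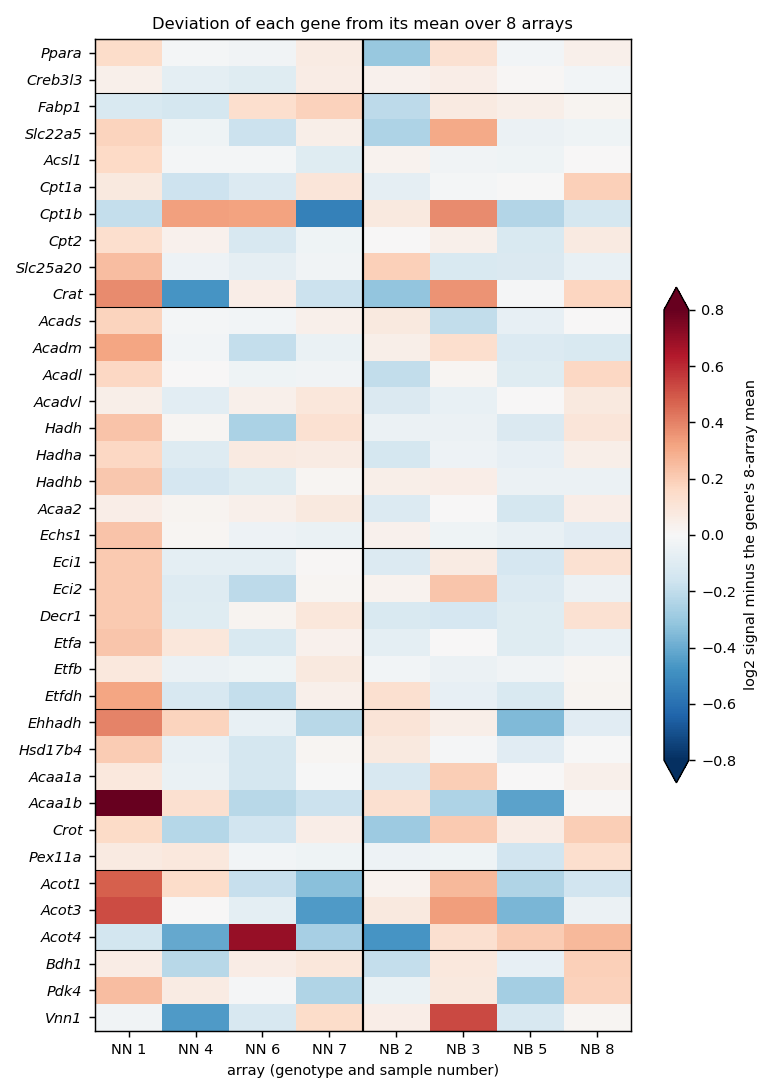
Deviation of each gene from its own mean over the 8 arrays, in log2 units, with genes in rows by role and arrays in columns by genotype. Colours run to 0.8 in either direction. The NN 1 column is above the mean for 33 of 37 genes and the NB 5 column below it for 31 of 37. Of all features, 56.7% are above their mean on NN 1 and 46.0% on NB 5.

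Agreement between pairs of genes across the 8 arrays was computed for 7 of 8 listed pairs, of subunits, related copies or neighbouring steps, since Acot1 and Acot2 could not be paired here. The pair of the peroxisomal genes Ehhadh and Acaa1b had Pearson's r = 0.876 (exact permutation p = 0.00516, two-sided, 0.0361 after Benjamini-Hochberg adjustment over the 7). Spearman's rho was 0.786 (exact permutation p = 0.0279, adjusted p = 0.195). Without NB 5 and NN 1, the arrays farthest from the median of Ehhadh, r was 0.574 over the other 6, and with each array left out in turn it lay between 0.769 and 0.933. Within the genotypes r was 0.922 over the 4 NN arrays and 0.734 over the 4 NB arrays, and 0.859 for deviations from the genotype means. Without NN 1 alone r was 0.769 and the adjusted exact p was 0.289. Under median scaling r was 0.872 with an adjusted exact p of 0.0597.

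No other pair passed. The subunits Hadha and Hadhb gave r = 0.449 and rho = 0.214 (exact p = 0.272 and 0.619). For the subunits Etfa and Etfb these were 0.574 and 0.262 (exact p = 0.169 and 0.536). The related thiolases Acaa1a and Acaa1b gave 0.0841 and −0.0714 (exact p = 0.806 and 0.882). Cpt1a gave r = 0.157 with Pdk4 and 0.378 with Cpt2 (exact p = 0.706 and 0.355), and rho = 0.167 and 0.381 (exact p = 0.703 and 0.360). Ppara and Creb3l3 gave r = 0.149 and rho = 0.595 (exact p = 0.664 and 0.132). The adjusted p of r for these 6 pairs lay between 0.592 and 0.806, and that of rho between 0.463 and 0.882.

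**Figure D4:**
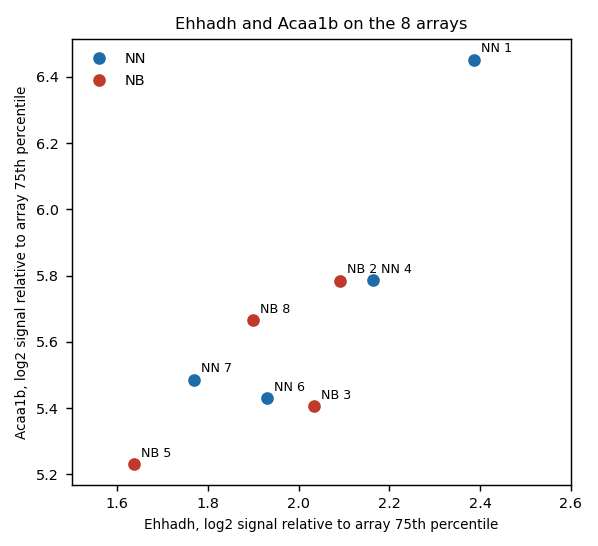
Log2 signal of Acaa1b against Ehhadh, each relative to the array's 75th percentile, with 1 point per array and the genotypes marked. NN 1 lies at the upper right and NB 5 at the lower left, and r is 0.876 over 8 arrays and 0.574 without these.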

How the data were processed

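Liver RNA of 8 samples was hybridised, with Cy3 as the only dye, to a custom Agilent array. Per the file headers, the scanner output comes from Agilent Feature Extraction 11.5.1.1 (version 9.1 in the submitters' processing notes), and the deposited signal is a background-subtracted intensity with no normalization between arrays. Per the labels, RNA had an integrity number above 8. The authors' value table holds linear intensity values whose 8 columns have the same distribution, with scale unstated, and served as an alternative.

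Probes (60273) were named by matching their accession to the RefSeq gene table of GRCm38.p6 (31064 probes, 26698 genes). Spots marked as outliers (248 to 621 per array) were left out, spots of a probe averaged, and the log2 signal set relative to each array's 75th percentile. A probe entered the test if it was well above background on 4 or more of the 8 arrays, and the brightest probe stood for its gene. Genotypes were compared over all features by two-sided moderated tests in limma 3.58.1 (lmFit, then eBayes, under R 4.3.3) with Benjamini-Hochberg adjustment at a threshold of 0.05. Pearson's r, Spearman's rho and the adjustment over pairs came from scipy 1.17.1. The exact permutation p was counted over all pairings of the arrays by separate code. The number of arrays limits the precision.

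The members and gene lists were chosen with earlier results of these data known. Named with every array's value were the 2 genes of each role with the smallest p, Ppara, Cpt1a, Acsl1, Pdk4, Bdh1, Acaa1a and Acaa1b, and, of the other genes, the 4 with the smallest p and 6 central ones, given by their difference where no array values stand. Of the other genes, 3 are not reported here; they stay in the counts over all of them, and were not examined for single outlying arrays. Alternatives covered background correction, scaling, filters, probe summaries, array weights, the variance model, slide position and each array left out.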

Additional observations from a re-analysis of the deposited data

Results flagged for a closer look

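In each genotype the array farthest from the others was examined for the listed genes and 68 of the 71 other genes of the pathway, and 9 of 210 sets of 4 arrays (4.29%) had 1 array far from the other 3 relative to their spread, where chance gives about 1 in 20. Among the listed genes, Slc25a20 stood at 3.91 on NN 1 and between 3.60 and 3.64 on the other NN arrays. Decr1 stood at 5.41 on NB 8 and between 5.16 and 5.20 on the other NB arrays. Bdh1 was low on NN 4, at 4.39, with 4.67 to 4.70 on the other NN arrays. On NB 2, 3 genes were low and 1 was high. Oxct1, which uses ketone bodies, stood at −1.14 there (others −0.88 to −0.85). Dbi, the acyl-CoA binding protein, stood at 5.86 (others 6.38 to 6.46), and Rxra, the partner of PPARα, at 5.56 (others 5.83 to 5.84). The transcription factor Foxa2 stood at 2.76 (others 1.96 to 2.03). Acad11, an acyl-CoA dehydrogenase, was high on NN 1 at 5.06 (others at 4.80), and Acsm3, a medium-chain acyl-CoA synthetase, was low on NN 6 at 1.26 (others 1.78 to 1.84). No cause was tested for any of these.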

How the results depend on the processing

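No gene of the list was called under any alternative run, an adjusted p of 0.1 included. The median difference of the list lay between −0.0614 and 0.0281 with each array left out. Of the 37 genes, 14 kept their sign under every alternative. The sign of the others turned as follows, with the cause not tested. With quantile normalization the differences were 0.0340 (Acadm), 0.00209 (Acadvl), 0.0291 (Acsl1), 0.0402 (Cpt2), 0.0311 (Etfdh) and 0.0385 (Hsd17b4). With the authors' values they were 0.0347, 0.00277, 0.0279, 0.0439, 0.0317 and 0.0409 in the same order, and 0.00483 for Eci1. With normexp they were −0.00699 (Acot3), −0.00669 (Bdh1), −0.00224 (Cpt1b), 0.0723 (Cpt2), 0.00517 (Etfdh) and −0.0174 (Hadhb). Array weights gave −0.00210 (Acot3) and 0.0293 (Slc22a5), median scaling 0.00358 (Cpt2), the mean of probes −0.0153 (Hadhb) and separate probes −0.0330 (Hadhb). With each array left out in turn the ranges were Acaa1a −0.0019 to 0.108, Acadm −0.0942 to 0.0746, Acot1 −0.173 to 0.0963, Acot3 −0.149 to 0.176, Acot4 −0.0648 to 0.305, Acsl1 −0.0493 to 0.0363, Bdh1 −0.0658 to 0.073, Cpt1a −0.00357 to 0.0918, Cpt1b −0.131 to 0.16, Cpt2 −0.0462 to 0.0413, Crat −0.0345 to 0.247, Eci1 −0.076 to 0.035, Eci2 −0.0202 to 0.123, Etfdh −0.0856 to 0.0834, Fabp1 −0.0836 to 0.0317, Hadh −0.147 to 0.0131, Hadhb −0.0428 to 0.0752, Hsd17b4 −0.0585 to 0.0568, Pdk4 −0.117 to 0.0539, Ppara −0.139 to 0.00249, Slc22a5 −0.113 to 0.0704, Slc25a20 −0.128 to 0.0179. Of the pairs, Acaa1a with Acaa1b had r = −0.0619 under quantile normalization and −0.0254 under median scaling, and Ppara with Creb3l3 −0.493 under quantile normalization and −0.190 under normexp. With each array left out r ran from −0.358 to 0.407 for Acaa1a with Acaa1b, −0.15 to 0.416 for Cpt1a with Pdk4, −0.131 to 0.654 for Hadha with Hadhb. The count of correlated pairs was 1, fell to 0 under median scaling, and was 0 to 1 with each array left out. The pair of Acot1 and Acot2 was not run. No paired analysis was possible because the sample numbers run through both genotypes and none is shared. The precision of each difference is that of its interval, from 4 arrays per genotype.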

Other observations

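Among the 71 other genes of the pathway, a few varied widely between arrays of 1 genotype. Lpin1, a phosphatidate phosphatase that also acts as a coactivator of PPARα, read 0.40, 0.74, 0.54 and 1.18 on the NN arrays and 0.70, −0.24, 0.22 and 3.05 on the NB arrays. NB 8 stood far above the rest, a span of 9.81-fold over the 8 arrays, and the gene was named after its values were seen. Cyp4a10 and Cyp4a14, microsomal fatty acid ω-hydroxylases and targets of PPARα, were both highest on NN 1. Cyp4a10 read 3.66, 1.68, 1.96 and 2.06 on the NN arrays and 2.61, 2.63, 1.79 and 2.35 on the NB arrays, and Cyp4a14 read 1.57, −0.73, 0.50 and 0.56 on the NN arrays and −0.07, 0.44, −0.28 and 0.94 on the NB arrays. Both were lowest on NN 4, so the highest and the lowest array belonged to the same genotype. Fgf21, a hormone of the fasted liver, read −1.11, −0.29, 0.43 and −0.13 on the NN arrays and −1.17, 0.26, −0.17 and −0.43 on the NB arrays, with its lowest arrays NB 2 and NN 1. G0s2, another PPARα target, read 2.78, 4.48, 4.26 and 3.90 on the NN arrays and 2.91, 4.38, 4.55 and 3.01 on the NB arrays. Its SD within genotype was 0.81, and NN 1 was its lowest array. NN 1, the highest array for 23 of the 37 listed genes, was thus high for the Cyp4a genes and low for Fgf21 and G0s2. Of the other PPARα targets, Aldh3a2, Cd36 and Fabp2 were also highest on NN 1, and Ucp3 and Mgll were lowest there.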
